A study of Rattus norvegicus with 8 samples.

Results

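The genes described here are 9 regulators of the sterol feedback loop, measured by RNA-seq in primary rat nucleus pulposus (NP) cells, the cells of the gelatinous core of the intervertebral disc. They are Srebf1, Srebf2, Scap, Insig1, Insig2, Mylip, Abca1, Nr1h2 and Nr1h3, chosen by name for their role by a rule that uses no measured value, though with earlier results of these data known, and each symbol matched 1 row among the 13543 named rows of the deposited table. The cells came from the discs of 4 adult Sprague Dawley rats and were grown in DMEM with 10% FBS. The series speaks of respective controls, but no label ties a control library to a knockdown library of the same rat, so the comparison is unpaired. Cells transduced with lentivirus carrying ShCtrl, a control hairpin RNA (Sirt6-Ctrl, libraries S1 to S4), were compared with cells given lentivirus with 3 ShSirt6 clones mixed together (Sirt6-KD, libraries S5 to S8). All 8 cultures therefore carried a lentiviral hairpin vector, the 3 ShSirt6 clones cannot be told apart in the pooled cultures, and a knockdown lowers Sirt6 without removing it. Sirt6 encodes an NAD-dependent histone deacetylase, and the comparison asks which transcripts differ after its depletion.

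SREBP transcription factors are made as membrane precursors in the endoplasmic reticulum, where SCAP escorts them and INSIG proteins hold the pair back when sterols are plentiful. When sterols run low the precursors move to the Golgi, are cut by the proteases encoded by Mbtps1 and Mbtps2, and the released fragment enters the nucleus to switch on genes of sterol and fatty acid synthesis. SREBP-2, from Srebf2, acts mainly on sterol genes and SREBP-1, from Srebf1, mainly on fatty acid genes. The liver X receptors LXRβ (Nr1h2) and LXRα (Nr1h3) sense oxysterols and switch on sterol export through ABCA1, the ubiquitin ligase MYLIP (IDOL), which limits lipoprotein uptake, and Srebf1. The disc core is avascular, so its cells live with little oxygen and depend on nutrients that diffuse in from the vertebral endplates.

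Sterol response element (SRE) sequences and their neighbours were looked up in the 250 bases before each RefSeq start site (build GRCr8) because SREBPs and LXRs are known to act on some of these genes through their promoters. The stretches of the 4 genes that fell in the knockdown cells are shown, 5′ to 3′ on the strand of the gene, with capitals marking a match to the SRE-like motif ATCACNCCA, the E-box CACGTG or the CCAAT box (ATTGG where the match is on the opposite strand). The table gives Srebf1 start sites on chromosome 10, minus strand, with windows at chr10:45529165-45529414, before the annotated gene, and at chr10:45519011-45519260, inside it. The Srebf2 stretch of 30 bases lies at chr7:115543147-115543176 on the plus strand, inside the annotated gene (chr7:115542774-115600945). The Insig1 stretch lies at chr4:8057813-8058019 and the Nr1h2 window at chr1:104183864-104184113, both on the minus strand and just before the annotated gene. Exon and intron limits were not given in the tables used here.
Srebf1, upstream start: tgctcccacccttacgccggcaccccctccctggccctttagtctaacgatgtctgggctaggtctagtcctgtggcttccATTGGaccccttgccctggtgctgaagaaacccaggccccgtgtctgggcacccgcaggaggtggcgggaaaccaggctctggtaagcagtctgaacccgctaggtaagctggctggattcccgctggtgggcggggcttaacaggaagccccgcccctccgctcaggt
Srebf1, downstream start: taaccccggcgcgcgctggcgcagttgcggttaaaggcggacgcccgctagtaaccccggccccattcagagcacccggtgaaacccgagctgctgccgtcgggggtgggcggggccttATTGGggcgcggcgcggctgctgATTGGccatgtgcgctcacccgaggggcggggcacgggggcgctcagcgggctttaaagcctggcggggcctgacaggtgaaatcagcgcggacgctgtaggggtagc
Srebf2: gccATCACCCCAtgagccgcttcgcgctcc
Insig1: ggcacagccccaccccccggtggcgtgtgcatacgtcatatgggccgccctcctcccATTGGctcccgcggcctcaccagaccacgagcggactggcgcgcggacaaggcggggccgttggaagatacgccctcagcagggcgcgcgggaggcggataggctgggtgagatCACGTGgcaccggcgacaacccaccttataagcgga
Nr1h2: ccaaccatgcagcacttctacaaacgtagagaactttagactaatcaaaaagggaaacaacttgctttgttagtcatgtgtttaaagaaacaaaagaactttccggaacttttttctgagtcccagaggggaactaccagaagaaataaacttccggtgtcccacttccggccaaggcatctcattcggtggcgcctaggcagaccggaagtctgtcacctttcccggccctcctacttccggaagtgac

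Of the 10 windows of the 9 genes, 1 matched the SRE-like motif exactly, that of Srebf2, at positions -157 to -149 from the start. The share was 0.633% among the 33469 rat windows of the same length, searched on both strands. The Srebf2 window also held a CCAAT box at positions -129 to -125. The E-box was in 3 of the 10 windows (Scap, Insig1 and Abca1) and in 5.59% of all windows. The CCAAT box was in 6 of the 10 and in 34.0% of all windows, and the GC box GGGCGG, not capitalized above, was in 7 of the 10 and in 30.5%. The nuclear receptor half-site AGGTCA (14.1% of windows) and its direct repeat with a spacer of 4 bases, DR4 (0.00299%), were in 0 of the 10, and the Nr1h2 and Nr1h3 windows matched 0 of the 6 motifs. All 250 bases of the Nr1h3 and Insig2 windows lie inside the annotated genes, so they do not cover the bases before the genes' 5′ ends. Each motif was searched as exact letters, with N for any base, so sites with a variant spelling would be missed. The DR4 string was in 1 of the 33469 rat windows, so its absence from the 10 does not show that LXR sites are absent. These matches describe letters in a window, not factor binding, which was not measured here. The Srebf2 gene also hosts the microRNA rno-miR-33-5p, known for repressing Abca1, at chr7:115593957-115593977 on the plus strand, whose 21-base mature sequence is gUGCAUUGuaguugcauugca with the seed, bases 2 to 8, in capitals. Mature microRNAs were not measured here.

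The libraries held between 31994838 and 40124813 counts, and each of the 9 genes had at least 213 counts in every library. Sirt6 itself was 52.7 ± 3.78 CPM (counts scaled to a common library size by TMM; mean ± SD, n = 4) in Sirt6-Ctrl and 20.6 ± 1.07 in Sirt6-KD, with a log2 fold change of -1.35 (adjusted p = 0.000713, edgeR quasi-likelihood test with Benjamini-Hochberg adjustment), and the groups did not overlap. Added spike-in RNA took 2.97 to 9.80% of the counts in Sirt6-Ctrl and 2.15 to 2.47% in Sirt6-KD, highest in S1 and S2, and the groups differed (exact permutation test, two-sided, p = 0.0286, the smallest that 4 against 4 can give). Scaling by spike-in counts moved the median over all genes of the log2 fold change from -0.02 to 0.94, so every direction below is relative to the bulk of genes. Of the NP markers, Acan (21.1 ± 23.5 and 13.8 ± 4.08 CPM in Sirt6-Ctrl and Sirt6-KD), Pax1 (71.8 ± 8.09 and 53.4 ± 4.88) and Krt8 (6.56 ± 3.07 and 2.63 ± 0.473) were detected. So were Sox9 (7.98 ± 5.21 and 11.1 ± 4.16) and Car12 (28.4 ± 31.0 and 82.1 ± 10.8, log2 fold change 1.53, edgeR adjusted p = 0.0776). Of 9 tested NP markers 2 were called lower (Krt8 and Car3) and 0 higher, against 10.7% and 8.02% of all genes. Sox9 and Car12 were the 2 with positive log2 fold changes, the other 7 were negative, and the median was -0.62. At an unadjusted edgeR p under 0.05, 5 NP markers were lower and 1 higher, but the share of all genes at this looser threshold was not computed. Krt18, Krt19, T, Shh and Col2a1 were not matched to a gene name in the deposited data and were not analysed here. Summed over 7 annulus fibrosus and fibroblast markers, the control libraries ran from 13730 to 25993 CPM and the knockdown libraries from 8423 to 17920 CPM. Col1a1 made up most of this sum (17093 ± 5599 and 11032 ± 4373 CPM) and was not called (edgeR adjusted p = 0.150). Of the 7 markers, 5 had negative and 2 positive log2 fold changes. Scx (-1.20) was the 1 called lower and 0 were called higher, against 10.7% and 8.02% of all genes. Summed over 3 leukocyte markers, the control libraries ran from 11.9 to 29.7 CPM and the knockdown libraries from 14.96 to 23.8 CPM. The endothelial marker Tek stayed under 0.592 CPM in each library. In bulk RNA, fewer cells of a type and less RNA per cell cannot be told apart, and the part of cell makeup in the results was not tested.

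Both SREBP genes, the SREBP-induced brake Insig1 and the LXRβ gene Nr1h2 were lower in Sirt6-KD cells, while Scap, Insig2, Mylip, Abca1 and the LXRα gene Nr1h3 did not pass the test. Calls required an adjusted p under 0.05 together with more than a 1.5-fold difference, and 4 of the 9 genes were called lower, against 10.7% of the 13250 genes tested, and 0 higher, against 8.02%. The same 4 genes had groups that did not overlap, all lower in Sirt6-KD, against 15.6% of all genes, with 0 higher against 14.8% (30.4% of all genes in either direction), and the groups of the other 5 genes overlapped. Of the 5 genes not called, 0 had an unadjusted p under 0.05 in edgeR, and DESeq2 and limma-voom likewise called 4 of the 9 lower and 0 higher. The median log2 fold change of the 9 genes was -0.06, against -0.02 for all genes. With spike-in scaling 0 of the 9 genes were called, but that scaling called only 20 genes higher and 4 lower among all genes tested. Under it Srebf1, Srebf2 and Insig1 kept negative values while the other 6 were positive, with 5 of the 9 below the median of all genes.

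**Figure D1:**
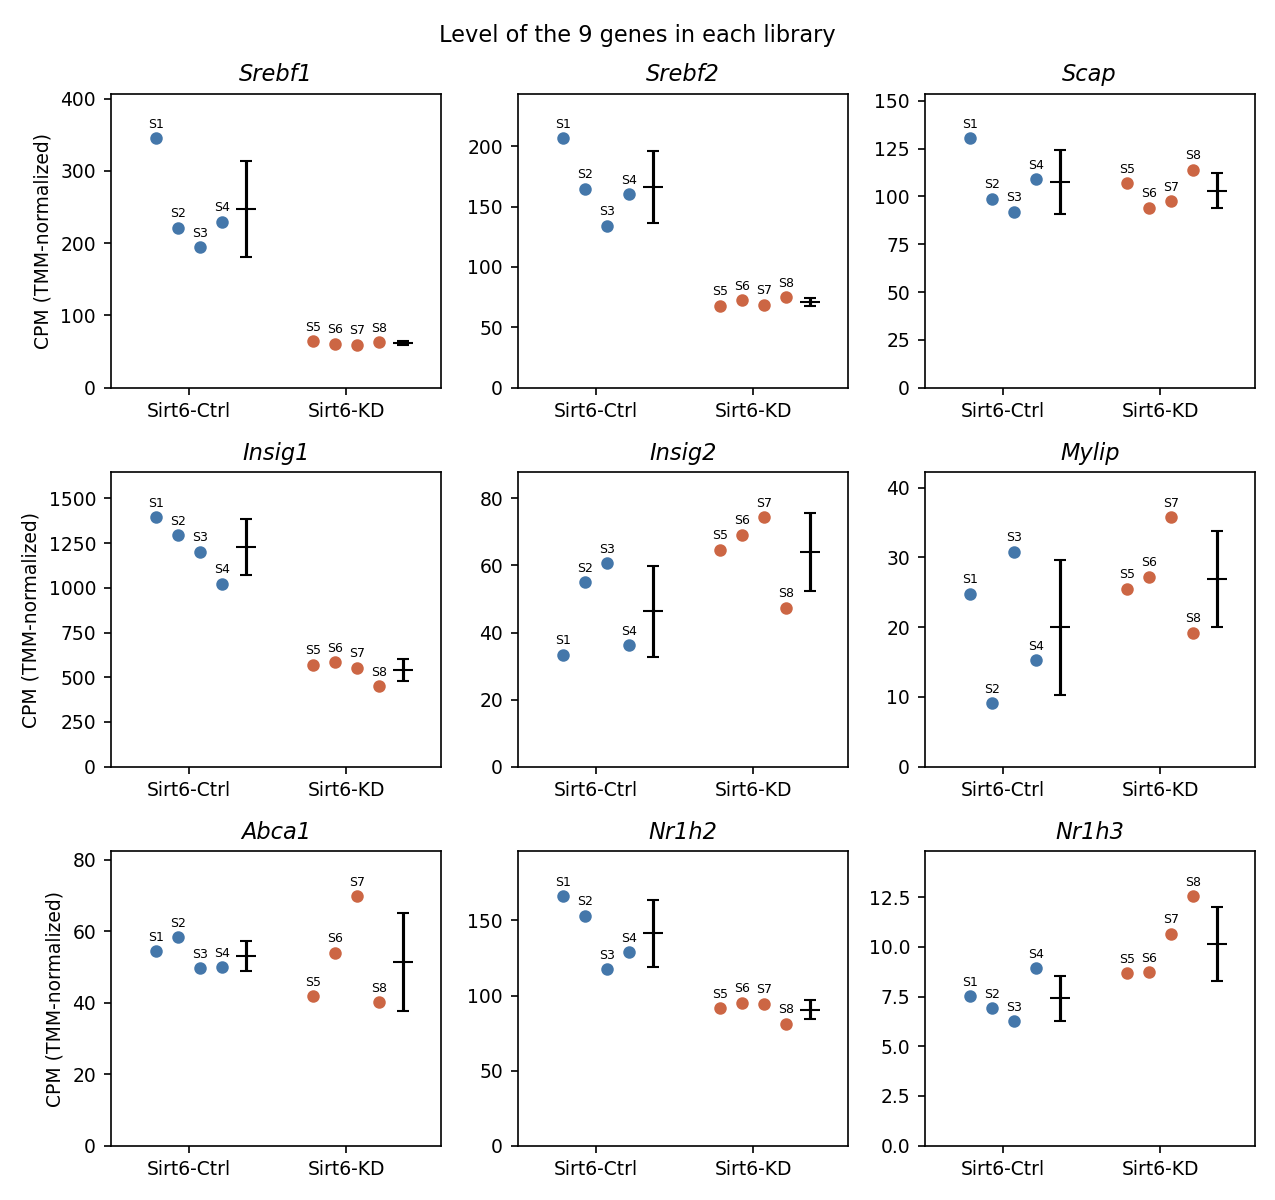
Level of each of the 9 genes in each library, in TMM-normalized CPM on a linear axis starting at 0, with Sirt6-Ctrl libraries S1 to S4 in blue and Sirt6-KD libraries S5 to S8 in orange and the mean ± SD as a black bar (n = 4). Srebf1, Srebf2, Insig1 and Nr1h2 show no overlap between the groups, and the other 5 genes do.

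Srebf1, which encodes the lipogenic SREBP-1, fell the most of the 9 genes. Its level was 345, 221, 194 and 229.6 CPM in the Sirt6-Ctrl libraries S1 to S4. In the Sirt6-KD libraries S5 to S8 it was 64.2, 60.8, 59.2 and 63.2 CPM. The highest knockdown library lay well under the lowest control library, and S1 stood above the other controls. The means were 248 ± 66.6 and 61.8 ± 2.28 CPM (SD, n = 4), so that Sirt6-KD held 25.0% of the control level, a log2 fold change of -2.001 with a standard error of 0.18 (95% interval -2.40 to -1.61, edgeR adjusted p = 0.000366). With spike-in scaling the value was -0.97 (adjusted p = 0.158), which is -1.91 relative to the median of all genes. Reads were summed per gene, so transcripts from the upstream and downstream start sites cannot be told apart.

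Srebf2, which encodes the sterol-directed SREBP-2, fell less. It stood at 207, 165, 134 and 160.2 CPM in S1 to S4. The knockdown values in S5 to S8 were 68.0, 72.5, 68.7 and 75.05 CPM. The groups did not overlap, and as for Srebf1 the control libraries spread more widely, with a coefficient of variation of 18.0% against 4.64% in Sirt6-KD. The log2 fold change was -1.23 with a standard error of 0.14 (95% interval -1.55 to -0.91, edgeR adjusted p = 0.00143), or 42.7% of the control level. Under spike-in scaling it was -0.20, and -1.14 relative to all genes.

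Of the escort and its anchors, Insig1 fell while Scap and Insig2 did not pass the test. Scap, which encodes the sterol-sensing escort of both SREBPs, measured 130.4, 98.9, 92.0 and 109 CPM in S1 to S4. In S5 to S8 it measured 107, 94.1, 97.4 and 114 CPM. The groups overlapped, and the log2 fold change of -0.06 had a 95% interval from -0.37 to 0.24 (edgeR adjusted p = 0.783), an interval that leaves out a change of 1.5-fold in either direction on the TMM scale, though spike-in scaling gave 0.93.

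Insig1 encodes the sterol-responsive INSIG, itself an SREBP target. Its level was 1394, 1293, 1203 and 1022 CPM in S1 to S4. In S5 to S8 it was 570.5, 585, 554 and 449.6 CPM. S4 and S8 were the lowest of their groups and the groups stayed apart. The log2 fold change was -1.19 with a standard error of 0.15 (95% interval -1.52 to -0.85, edgeR adjusted p = 0.00217), which left 43.9% of the control level, and spike-in scaling gave -0.17, or -1.11 relative to all genes.

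Insig2, the paralogue that also retains SCAP but is not known as an SREBP target, did not fall. It measured 33.4, 55.1, 60.8 and 36.1 CPM in S1 to S4 and 64.7, 69.2, 74.35 and 47.5 CPM in S5 to S8. S8 lay among the controls while the other 3 knockdown libraries lay above them. The log2 fold change of 0.46 had a 95% interval from -0.03 to 0.96 (edgeR adjusted p = 0.160), so neither equality nor a rise of 1.5-fold lies outside the interval, and spike-in scaling gave 1.41, or 0.47 relative to all genes.

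Among the sterol sensors, Nr1h2, which encodes LXRβ, was called lower by a narrow margin. Its controls stood at 166, 153, 118 and 129 CPM in S1 to S4. The knockdown libraries stood at 91.5, 95.1, 94.5 and 81.3 CPM. The groups did not overlap, and the log2 fold change was -0.64 with a standard error of 0.14 (95% interval -0.95 to -0.34, edgeR adjusted p = 0.0115), a 1.56-fold difference against the required 1.5. Without S1 the value was -0.53 and without S8 -0.55, both under that fold, and spike-in scaling turned it to 0.40, which is -0.54 relative to all genes. Nr1h3, which encodes LXRα, measured 7.53, 6.93, 6.27 and 8.94 CPM in S1 to S4 and 8.68, 8.72, 10.7 and 12.5 CPM in S5 to S8. Only S4 reached into the knockdown range, and the log2 fold change of 0.45 (95% interval -0.11 to 1.01, edgeR adjusted p = 0.222) did not pass the test. Spike-in scaling gave 1.40, or 0.46 relative to all genes.

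The LXR-driven effectors overlapped between the groups. Abca1, the transporter that loads cholesterol onto apolipoprotein A-I, measured 54.45, 58.4, 49.6 and 49.9 CPM in S1 to S4 and 41.8, 54.0, 69.8 and 40.1 CPM in S5 to S8. The knockdown libraries bracketed the controls, and the log2 fold change was -0.05 (95% interval -0.46 to 0.37, edgeR adjusted p = 0.886). Mylip, the ligase gene that limits lipoprotein uptake, measured 24.8, 9.06, 30.8 and 15.3 CPM in S1 to S4 and 25.5, 27.2, 35.7 and 19.2 CPM in S5 to S8. S2 was the lowest of the 8, the coefficient of variation in Sirt6-Ctrl was 48.5%, and the log2 fold change of 0.43 had a 95% interval from -0.34 to 1.20 (edgeR adjusted p = 0.405). Spike-in scaling gave 0.97 for Abca1 and 1.25 for Mylip, or 0.02 and 0.31 relative to all genes. Abcg1, another LXR-driven sterol exporter, was near its detection limit at 0.518 ± 0.587 and 0.880 ± 0.411 CPM, where 3 counts in a library equal 0.0748 to 0.0938 CPM.

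**Figure D2:**
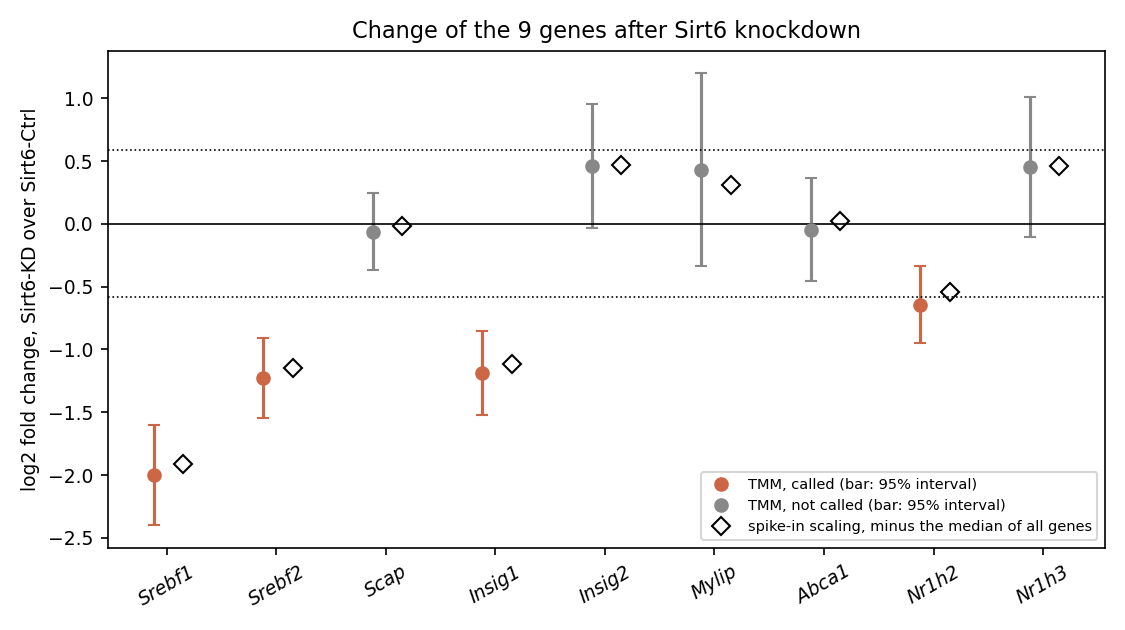
Log2 fold change of each gene, Sirt6-KD over Sirt6-Ctrl, with TMM scaling and its 95% interval (filled circles, orange where called) and with spike-in scaling after subtraction of the median of all genes (open diamonds). Dotted lines mark a 1.5-fold change, and Srebf1, Srebf2, Insig1 and Nr1h2 lie below the lower line under TMM, while the Nr1h2 diamond at -0.54 lies just above it.

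Ratios of paired genes within a library do not depend on how libraries are scaled, and 5 ratios of raw counts were compared over the 8 libraries. The Insig1 to Insig2 ratio was 41.8, 23.5, 19.8 and 28.3 in S1 to S4. In S5 to S8 it was 8.82, 8.45, 7.45 and 9.47. The log2 ratio fell by 1.68, and the groups did not overlap (exact permutation test, two-sided, p = 0.0286, 0.0357 after Benjamini-Hochberg adjustment over the 5 ratios). Since Insig2 missed the test on its own, this is a difference between the paralogues' responses rather than a call on Insig2.

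Srebf1 fell more than Srebf2. Their count ratio was 1.67, 1.34, 1.45 and 1.43 in S1 to S4 and 0.943, 0.839, 0.861 and 0.843 in S5 to S8, a log2 difference of -0.75. Counts of Srebf1 exceeded those of Srebf2 in each control library and lay below them in each knockdown library, though counts of different genes also depend on transcript length. Insig1 fell relative to Scap, with log2 ratios of 3.23 to 3.71 in Sirt6-Ctrl and 1.98 to 2.64 in Sirt6-KD, a difference of -1.13. Nr1h3 rose relative to Nr1h2, from log2 ratios of -4.47 to -3.85 up to -3.45 to -2.70, a difference of 1.08. Each of these 3 ratios had groups that did not overlap and the same exact permutation p of 0.0286 and adjusted p of 0.0357. That p is the smallest that 4 against 4 can give. All 4 ratios that separated the groups hold a gene already called lower, so their tests partly repeat the calls above. The genes paired were chosen with earlier results of these data known. The Abca1 to Mylip ratio differed by -0.62 on the log2 scale with overlapping groups (exact permutation p = 0.229), and S2, the library with little Mylip, carried the highest ratio of 6.45. Without S2 that difference was -0.24.

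**Figure D3:**
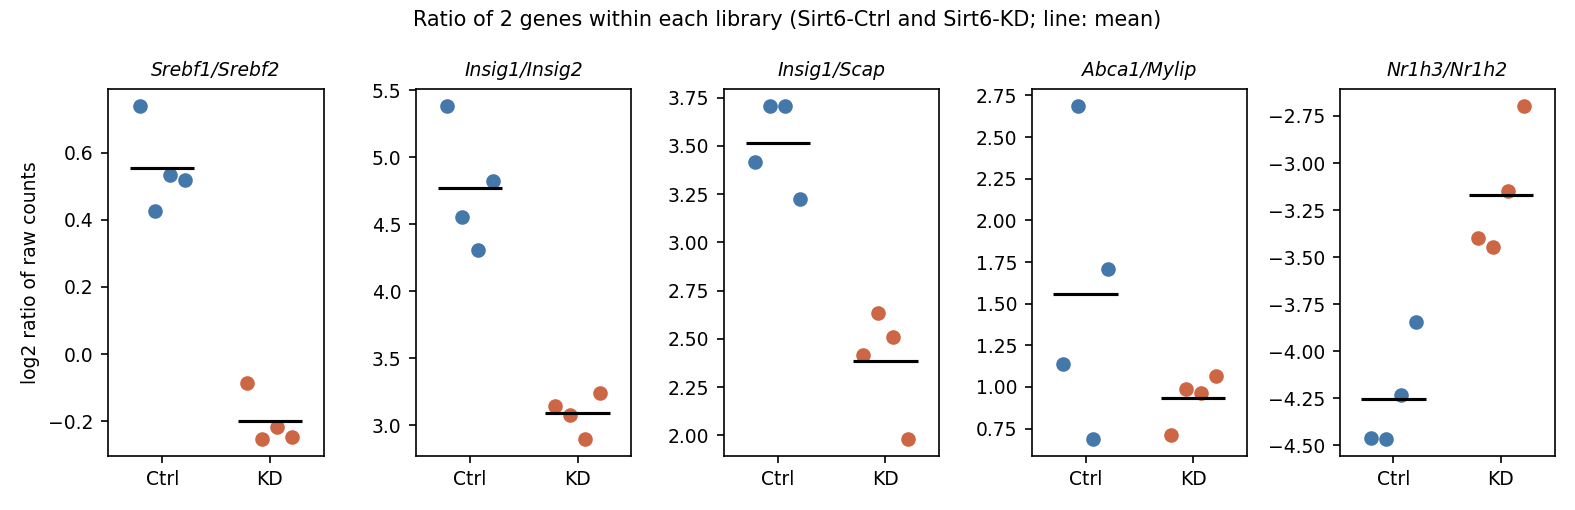
Log2 ratio of the raw counts of paired genes in each library, Sirt6-Ctrl in blue and Sirt6-KD in orange, with the group mean as a line (n = 4). The Insig1/Insig2, Insig1/Scap, Srebf1/Srebf2 and Nr1h3/Nr1h2 ratios separate the groups, and Abca1/Mylip does not.

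Among genes of SREBP processing and turnover, 10 of 29 tested were called lower and 1 higher, against 10.7% and 8.02% of all genes, with a median log2 fold change of -0.37. The proteases Mbtps1 (184 ± 14.4 and 175 ± 9.20 CPM in Sirt6-Ctrl and Sirt6-KD) and Mbtps2 (27.5 ± 6.22 and 34.5 ± 4.40) that cut SREBPs were not called. Rnf139 (TRC8), a ligase that binds INSIG, had a log2 fold change of 0.01 and was not called. Syvn1 (HRD1), a ligase of the endoplasmic reticulum, fell by 1.11, and so did Ube2g2 (by 1.08), Faf2 (by 0.81), Ufd1 (by 0.98), Vcp (by 0.86) and Tmub1 (by 0.66), which encode parts of the machinery that pulls proteins out of the membrane for degradation. Sar1b (-1.19) and Sec24c (-0.73), parts of the COPII coat that carries SCAP and other cargo to the Golgi, fell too. The other COPII genes tested, Sec23a (-0.42), Sec23b (-0.42), Sec24d (-0.16), Sec24a (0.52) and Sec24b (0.16), were not called. The chaperone Hsp90b1 (-1.41) and Lpin1 (-1.49), a phosphatidate phosphatase that restrains nuclear SREBP, also fell. Erlin1, a membrane scaffold of INSIG and SCAP, rose by 0.78 on the log2 scale, from 32.8 ± 5.86 to 56.5 ± 5.73 CPM. With spike-in scaling 0 of the 29 were called, against 20 genes called higher and 4 lower among all genes.

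Among 13 factors and cofactors that work with SREBPs on DNA, edgeR called 0 lower and 2 higher, against 10.7% and 8.02% of all genes. DESeq2 and limma-voom each called 0 lower and 3 higher. At an unadjusted edgeR p under 0.05, 3 were lower and 4 higher. The list had 6 negative and 7 positive values and a median of 0.16. Creb1, a cAMP-responsive factor, rose from 10.9 ± 7.30 to 31.0 ± 3.50 CPM (log2 fold change 1.505, edgeR adjusted p = 0.0495). Sp1, which binds GC boxes, rose by 0.69 (edgeR adjusted p = 0.0292), but its groups overlapped because S3 stood at 134.3 CPM against 77.3 to 79.4 in the other controls. The count of higher calls was 0 without S1, S4, S5, S6 or S7, 1 without S2 or S8, and 4 without S3. With spike-in scaling it was 0, against 20 among all genes. The count of lower calls was 1 without S4.

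Among genes that SREBPs act on, the sterol branch fell almost whole. Of 22 sterol synthesis enzymes 19 were called lower by edgeR, DESeq2 and limma-voom and 0 higher, with a median log2 fold change of -1.61. At an unadjusted edgeR p under 0.05, 0 were higher as well. Over all genes, edgeR called 10.7% lower and 8.02% higher. Hmgcs1, the HMG-CoA synthase, fell by 3.27 on the log2 scale and Msmo1, the methylsterol oxidase, fell by 2.42. Of 14 lipogenic genes usually assigned to SREBP-1, 6 were called lower and 2 higher, against the same shares, with a median of -0.32. Lpin1, counted above among genes of SREBP processing and turnover, is also among these 6. Scd, the stearoyl-CoA desaturase, fell by 4.60 from 123 ± 31.2 to 5.09 ± 1.11 CPM, Fasn, the fatty acid synthase, fell by 1.71 and Aacs, acetoacetyl-CoA synthetase, fell by 1.91, whereas the desaturase Fads1 (0.71) and the acyltransferase Agpat2 (0.78) rose. Without S1, S2, S4, S5, S6 or S7 the count of higher calls in this list was 0, and without S8 it was 1. With spike-in scaling the medians were -0.59 for the sterol enzymes and 0.61 for the lipogenic genes, or -1.54 and -0.33 relative to all genes. That scaling called 0 of the sterol enzymes and 1 of the lipogenic genes, against 20 genes higher and 4 lower among all genes.

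Sterol uptake and transport genes were split, with 3 of 22 called lower and 5 higher, against 10.7% and 8.02% of all genes, and a median of 0.05. Tmem97 (-1.53) and the lysosomal sterol carrier Npc2 (-1.16) fell. Lrp1, an endocytic receptor, rose by 1.16 on the log2 scale and Soat1, which esterifies cholesterol for storage, rose by 1.42. The count of higher calls was 3 without S1, S4, S5, S6 or S7, and that of lower calls was 5 without S2. With spike-in scaling 0 were called in either direction, against 20 genes higher and 4 lower among all genes.

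Around the LXRs, 0 of 9 partner genes were called lower (0 also at an unadjusted edgeR p under 0.05, and by DESeq2 and limma-voom) and 2 higher, against 10.7% and 8.02% of all genes, with a median of 0.41. Rxra, the partner with which LXRs bind DNA, rose from 20.3 ± 6.94 to 45.8 ± 6.30 CPM (log2 fold change 1.17, edgeR adjusted p = 0.0106), and the corepressor Nrip1 rose by 0.63, but 1 gene of this list was called higher without S1 and without each of S4 to S8. Of 10 LXR target genes outside the 9, 4 were called lower and 1 higher, against the same shares, with a median of -0.86, but 2 of the 4, Scd and Fasn, are also SREBP-1 targets. The others were Apoe, a lipoprotein component, which fell by 3.79 from 99.5 ± 54.7 to 7.17 ± 2.55 CPM, and Lpcat3, a phospholipid acyltransferase, which fell by 0.91. Tnfaip3, an NF-κB inhibitor, rose by 1.47. Of 7 oxysterol enzymes edgeR and DESeq2 called 0 in either direction, against the same shares of all genes, and limma-voom called 1 higher. At an unadjusted edgeR p under 0.05, 1 was lower and 1 higher. Of 13 other lipid transporters 1 was called lower (Abcd3, -0.82) and 2 higher (Abca9, 1.22, and Abcb1b, 0.79). The lower call was lost without S2, S4, S5, S6 or S7, and 1 of the higher calls without S1, S5, S6 or S8. These transporter counts lie near the shares of all genes. With spike-in scaling 0 LXR partners and 0 of these transporters were called, and 2 LXR target genes were called lower and 0 higher. Among all genes that scaling called 20 higher and 4 lower. With 1 library left out, 1 oxysterol enzyme was called lower without S3.

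**Figure D4:**
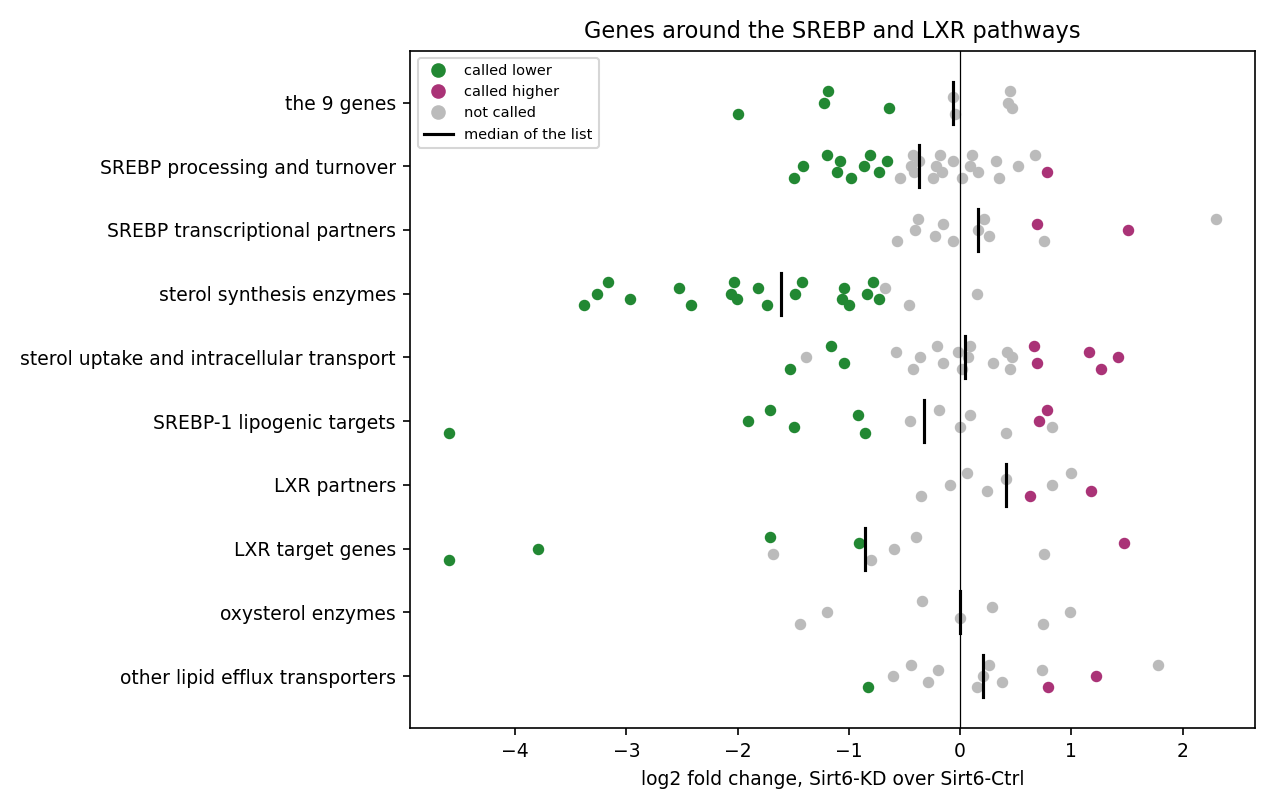
Log2 fold change (Sirt6-KD over Sirt6-Ctrl, TMM scaling) of each tested gene in the 9 genes and 9 lists around them, green where called lower, pink where called higher, grey where not called, with the median of each list as a black line. The sterol synthesis enzymes, with a median of -1.61, lie furthest to the left, while the LXR partners have a median of 0.41.

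Genes whose pattern over the 8 libraries was among the 5 most like each of the 4 called genes were ranked by the root-mean-square difference of centred log2 CPM, a description that mostly reads the group difference. For Srebf1 they included Sqle (0.162), a sterol enzyme, Tlcd1 (0.166), Nat6 (0.195) and Fasn (0.205). For Srebf2 they were Lage3 (0.0833), Jun (0.0983), Syvn1 (0.101), Ammecr1l (0.107) and Pdia4 (0.112). For Insig1 they included Rassf1 (0.0964), Sirt6 (0.146), Cacna1g (0.153) and Prpf3 (0.153). For Nr1h2 they were RGD1560212 (0.0482), Tpd52l2 (0.0527), Btbd2 (0.0634), Drg1 (0.0668) and Csk (0.0764). Among the 9 genes themselves the closest were Srebf2 and Insig1 (0.194), and the furthest apart were Srebf1 and Mylip (1.37).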

How the data were processed

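RNA was sequenced from 8 cultures, 4 per group. Per the submitters' processing notes, the authors used Trimmomatic 0.36, STAR 2.5.2b and featureCounts of Subread 1.5.2 with build Rnor_6.0. They deposited raw counts per Ensembl gene (32975 rows, 92 of them spike-ins) and a table of normalized signal for 13612 genes with gene names, which the authors made by dividing counts by 1 size factor per library. Its fold change and p columns were not used. Strandedness was not given in the sources used here, so reads of overlapping genes cannot be told apart.

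Counts were analysed with edgeR 4.0.16 in R 4.3.3: filterByExpr, TMM, the quasi-likelihood test over 13250 genes and the spike-ins, and Benjamini-Hochberg adjustment, with calls requiring more than a 1.5-fold difference at an adjusted p under 0.05. The code was tested on simulated data. Standard errors are the log2 fold change over the root of F. Shares of all genes were computed for calls and for groups that did not overlap, not for unadjusted p. Within-library ratios were compared by the exact permutation test over 70 splits. Alternatives used DESeq2 1.42.0, limma 3.58.1, other scalings, filters and thresholds, and fewer libraries.

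The 9 genes and all lists were chosen with earlier results of these data known. Named besides the 9 are Sirt6, Abcg1, the 3 called genes of smallest p per direction and list, called genes that act directly on SCAP, INSIG or SREBP, the 5 genes most alike each called member, and markers with the highest level. Outside this rule, Mbtps1, Mbtps2, Rnf139, Lpcat3, Sar1b, Sec24c and the other COPII genes were named after their values were seen. So were the markers Acan, Krt8, Sox9, Car3, Car12, Scx and Tek. Some genes that meet the rule are not reported here. Promoter and microRNA sequences are from RefSeq (GRCr8), and no coordinates were taken from the count tables. All 9 symbols matched the promoter table. No label ties a library to a rat, so libraries were not paired across the groups, and p-values and intervals cover the spread between these 8 libraries, each of 31994838 to 40124813 counts.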

Additional observations from a re-analysis of the deposited data

Results flagged for a closer look

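Within the groups of 4 libraries, 116 were examined over 58 named genes, and in 4 of them 1 library lay apart from the rest by more than Dixon's critical value, where chance would give 5.8. These 4 groups belong to genes outside the 9. Erlin1 was lowest in S1 at 24.1 CPM against 35.1 to 36.9 in the other controls (gap over range 0.86). Jun was highest in S1 at 321 CPM against 219.9 to 234 (0.865), and highest in S7 at 113 CPM against 102 to 104 in the other knockdown libraries (0.833). Sp1 was highest in S3 at 134.3 CPM against 77.3 to 79.4 (0.964).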

How the results depend on the processing

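No paired analysis was possible because the library names S1 to S8 carry no number shared between the groups and no label gives the rat of a library, although the series speaks of respective controls. Scaling by spike-in counts changed the most: 20 genes were called higher and 4 lower, 0 of the 9 genes were called lower, and the log2 fold changes became -0.97 for Srebf1, -0.20 for Srebf2, -0.17 for Insig1, 0.40 for Nr1h2, 0.93 for Scap and 0.97 for Abca1. The 9 genes gave 4 lower calls in the main test, and 3 to 4 with 1 library left out (3 without S1 or S8). Over all genes there were 1063 higher and 1416 lower calls. DESeq2 called 1606 higher, a test against 1.5-fold (glmTreat) 92 higher and 185 lower, a threshold of 0.01 on adjusted p 241 and 485, and leaving out S1 and S2 together 709 lower. With 1 library left out the counts ran from 445 (without S6) to 1699 (without S3) higher and from 700 (without S6) to 1913 (without S3) lower, and were also over 1.5 times smaller in both directions without S1, S5 or S7. Nr1h2 lost its call under glmTreat (-0.64, adjusted p = 0.551), at the 0.01 threshold (-0.64) and without S1 and S2 (-0.43). Its values ran from -0.72 to -0.53 with 1 library left out. Without S1 and S2, Scap was 0.046 and Abca1 0.056. With 1 library left out, Scap ran from -0.13 to 0.070 and Abca1 from -0.23 to 0.10. The cause of these shifts was not tested. Srebf1, Srebf2 and Insig1 kept their calls under each alternative run other than spike-in scaling, from -2.10 to -1.77, -1.32 to -1.08 and -1.27 to -1.07 with 1 library left out. The 4 ratios that separated the groups kept their direction with each library left out, with no test at that size.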
